A study of Schizosaccharomyces pombe with 4 samples.

Results

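The 10 chaperone genes described here encode the Hsp70 and Hsp90 proteins of fission yeast and the partners that work with them: ssa1, ssa2, sks2, bip1, hsp90, mas5, hsp104, hsp60, wos2 and sti1. They were chosen by name from the 5113 protein-coding genes of the annotation, and all 10 were found in it. One of them, hsp60, carries the symbol mcp60 there. The study compared wild-type Schizosaccharomyces pombe with a strain lacking Abp1 (labelled ABP1d, and APB1d on its ChIP sample), a DNA-binding protein related to CENP-B of human centromeres, both in exponential growth in YES, a rich medium. Chromatin fixed with formaldehyde was precipitated with an antibody against RNA polymerase II that carries phosphate on serine 5 in its C-terminal repeats (Ser5P), a form found early in transcription, and the DNA was sequenced. There are 4 labelled samples, an input and a ChIP per genotype, and each ChIP sample has 1 deposited list of scored intervals. No heat shock or other stress is named in the labels. The deleted gene, cbp1 in the annotation (synonym abp1), had no interval in either list, so the lists do not check the deletion.

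With 1 list per genotype nothing below has a replicate check, and no test between genotypes was made. The wild-type list holds 3242 intervals, of which 46 lie in the 10 genes, and the abp1 deletion list holds 2851, of which 65 lie in them. These counts do not follow covered length. The wild-type list covers 227413 bp, with 11931 bp in the 10 genes, and the abp1 deletion list 249934 bp, with 11456 bp in them. Read depth is unknown. The lowest deposited score is 200 in both lists, so a gene without an interval may carry polymerase below that level. Whether the lists were scaled alike is also unknown, and covered length moves with depth and scaling. Differences in covered length between the lists need not be differences in polymerase, and scores are compared within a list only. ChIP does not tell the strands apart, and 9 of the 10 genes, all but hsp90, overlap an annotated long non-coding RNA gene on the opposite strand. No share over all protein-coding genes stands beside this count, so it marks a limit of the reading and no trait of these genes.

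Chaperones bind proteins that are not folded and release them in cycles driven by ATP. Hsp70 proteins take up short exposed stretches of a client, J proteins such as Mas5 bring clients and speed ATP hydrolysis, and Hsp90 acts on clients closer to their final fold. Sti1 links Hsp70 to Hsp90, Wos2 is the fission yeast p23 protein that binds Hsp90, Hsp104 pulls proteins out of aggregates, and Hsp60 forms the folding chamber of mitochondria. Many of these genes are switched on further by the heat shock factor Hsf1 through heat shock elements, yet several are also highly expressed in growing cells.

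Intervals lay in 8 of the 10 genes in each list, where 7.18% of all protein-coding genes had one in wild type and 7.12% in abp1 deletion. The genes were proposed with results of these lists known, so this count describes them and supports nothing further. At least 50% of the gene was covered for 5 of the 10 in each list, namely hsp90, ssa2, sks2, bip1 and hsp60, against 2.89% of protein-coding genes in wild type and 2.89% in abp1 deletion. The same 5 genes had the middle 1 of 3 equal segments of their length covered in full, as had 1.86% and 2.17% of protein-coding genes. Partial coverage was found in mas5 and wos2, and 2 short islands in ssa1. No interval lay in sti1 or hsp104, or within 1000 bp of either, in either list.

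**Figure D1:**
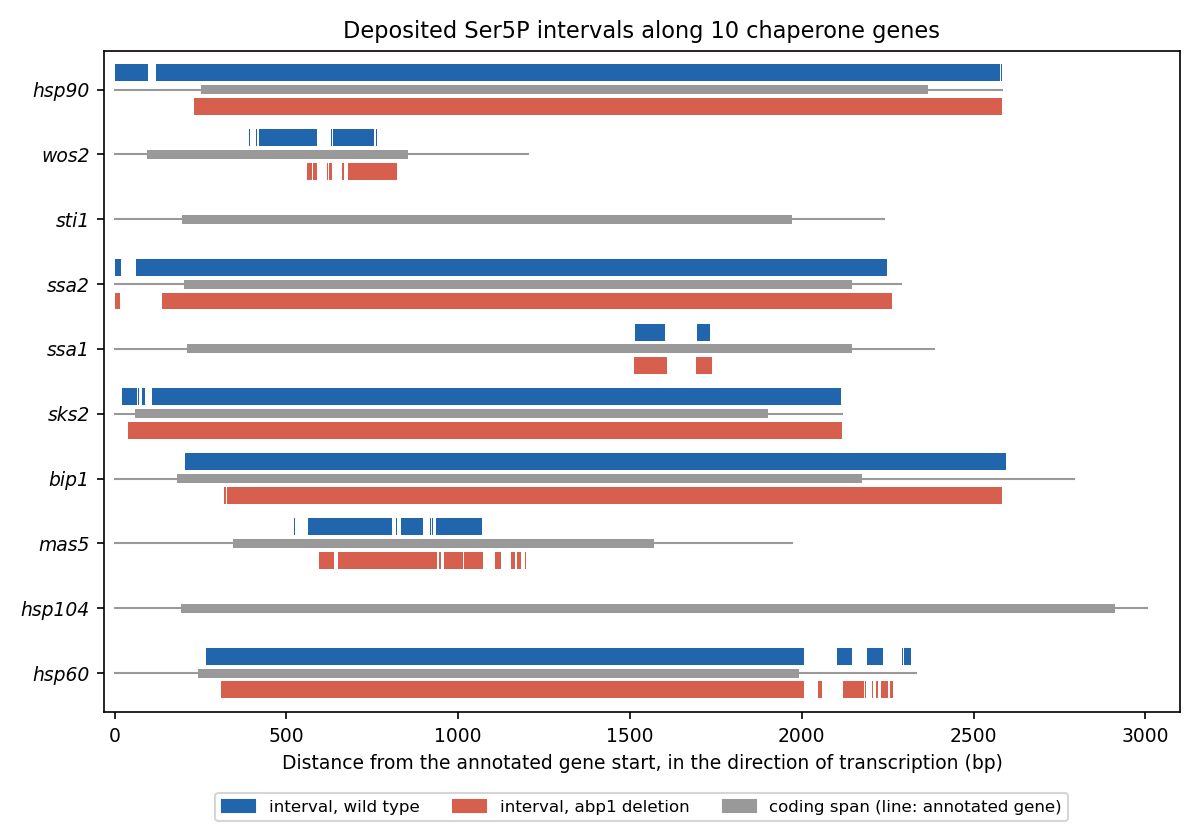
Deposited intervals along the 10 genes, plotted by distance from the annotated gene start in bp in the direction of transcription, with wild-type intervals above and abp1 deletion intervals below the gene (grey line, with the coding span as a thick bar). Nearly unbroken blocks fill hsp90, ssa2, sks2, bip1 and hsp60, ssa1 holds 2 short islands, and sti1 and hsp104 are empty; intervals of a few bp can be too narrow to see.

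A closer look at sequence is needed first for ssa1, because its intervals are unlike those of the others. Ssa1 and Ssa2 are the cytosolic Hsp70 proteins of the Ssa type. In wild type, ssa1 (SPAC13G7.02C, chromosome I, 2295580 to 2297964, minus strand) had 125 covered bp of 2385, in islands of 88 and 37 bp. In abp1 deletion it had 143 covered bp, in islands of 96 and 47 bp at the same places. The wild-type islands run from 1514 to 1601 and from 1695 to 1731 bp past the gene start, and those of abp1 deletion from 1512 to 1607 and from 1692 to 1738 bp. The wider island scored 1055 in wild type and 1045 in abp1 deletion, which put ssa1 at place 22 of the 367 genes with an interval in wild type and at place 32 of 364 in abp1 deletion, by highest score. By covered bp its places were 279 and 278. No other member stood so high by score and so low by covered length.

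Both islands lie where ssa1 and ssa2 differ at few bases, though not every such stretch held an interval. The wild-type islands are shown with the aligned bases of ssa2, 5′ to 3′ in the direction of transcription, from the ASM294v3 assembly; capitals mark the bases that differ between the genes. The wider island is chrI:2296364-2296451 on the minus strand and aligns to chrIII:2058545-2058632 on the plus strand, with 3 differing bases in 88. The narrower one, chrI:2296234-2296270 on the minus strand, aligns to chrIII:2058726-2058762 on the plus strand, with 2 differing bases in 37.
ssa1, wider island: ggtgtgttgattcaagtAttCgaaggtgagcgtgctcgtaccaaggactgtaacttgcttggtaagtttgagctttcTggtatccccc
ssa2, aligned bases: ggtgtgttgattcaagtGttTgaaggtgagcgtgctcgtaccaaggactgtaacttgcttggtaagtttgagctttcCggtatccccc
ssa1, narrower island: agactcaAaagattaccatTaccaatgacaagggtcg
ssa2, aligned bases: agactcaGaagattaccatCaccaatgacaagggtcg

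Over the whole coding sequence the genes share 1605 of 1935 aligned bases, or 82.9%, and their longest identical run, 56 bp, lies inside the wider island. Windows of 50 bases with at most 2 differences from ssa2 occur in only 2 stretches of ssa1, from 1508 to 1614 bp and from 1682 to 1752 bp past the gene start. All 125 covered bp of wild type and all 143 of abp1 deletion lie within these stretches, which hold 178 bases in all. With windows of 36 bases there are 7 such stretches with 402 bases, and the intervals lie in 2 of them. The aligned bases of ssa2 are covered throughout in both lists. The sources used here give neither read length nor the handling of reads that match several places. The window lengths were chosen after the islands were seen. Outside the stretches with at most 2 differences, ssa1 had no covered base in either list. With at most 1 difference the stretches no longer hold all covered bases. Windows of 50 bases then hold 70 covered bp of wild type and 74 of abp1 deletion, and windows of 36 bases hold 99 and 110. Of the 3 stretches found with 36 bases, that from 1007 to 1053 bp has no covered base in either list. Whether reads from ssa2 were placed on ssa1 was not tested.

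**Figure D2:**
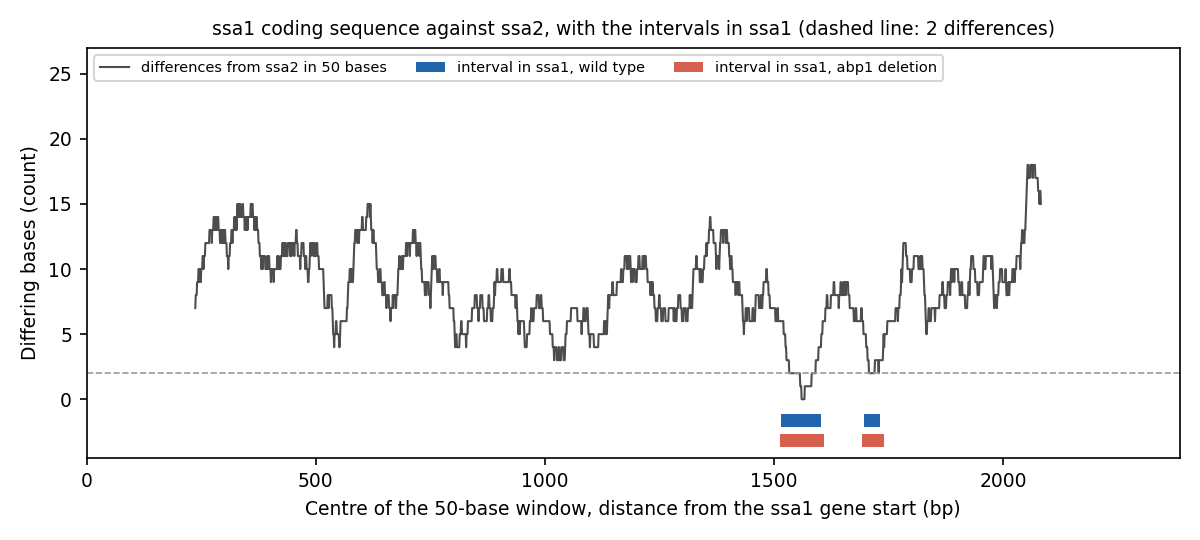
Number of bases that differ from ssa2 in each window of 50 bases along the ssa1 coding sequence, by distance of the window's centre from the ssa1 gene start in bp, with the intervals in ssa1 drawn beneath (wild type above, abp1 deletion below). The islands sit under the places where the count reaches 2 or less.

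The other members do not share sequence to this degree. The closest pairs after ssa1 and ssa2 are ssa2 with sks2, 65.8% identical over 1824 aligned bases with a longest identical run of 39 bp, and ssa1 with bip1, 64.8% identical with a longest run of 17 bp. The share of 36-mers found more than once in the genome was 0.894% in ssa1, 1.11% in ssa2, 0.192% in sks2 and 0.0% in the other 7 genes. Every 36-mer of the empty genes sti1 and hsp104 occurs once.

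Among the Hsp70 genes of the cytosol, ssa2 and sks2 were covered over nearly their whole length. Ssa2 is the Ssa protein made without stress, and Sks2 is an Hsp70 of the Ssb type, which works at the ribosome on new chains. In ssa2 (SPCC1739.13, chromosome III, 2057043 to 2059331, plus strand) 2204 of 2289 bp were covered in wild type, or 96.3%, and 2140 bp, or 93.5%, in abp1 deletion. One unbroken interval of 2185 bp carried most of this in wild type and one of 2124 bp in abp1 deletion. Its highest score, 1502 in wild type and 1360 in abp1 deletion, was the highest of the 10 genes in either list, at places 9 and 17 among all genes with an interval. In sks2 (SPBC1709.05, chromosome II, 1106396 to 1108511, plus strand) 2056 of 2116 bp were covered in wild type, or 97.2%, and 2077 bp, or 98.2%, in abp1 deletion. Its highest score was 696 in wild type, place 47, and 1047 in abp1 deletion, place 31. The widest intervals of sks2 measured 2000 and 2121 bp.

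The Hsp70 of the endoplasmic reticulum, bip1 (SPAC22A12.15C, chromosome I, 1182693 to 1185485, minus strand), helps proteins enter and fold in that compartment. Its wild-type coverage was a single interval of 2387 bp, 85.5% of the gene. In abp1 deletion 5 intervals covered 2258 bp, or 80.8%. The highest scores, 561 and 547, took places 81 and 107. The bases left free lay at both ends of the gene: the interval began 207 bp past the gene start in wild type, just inside the coding span, which begins at 183, and ended at 2593 of 2793 bp.

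Hsp90 showed the longest coverage of the 10 genes. In hsp90 (SPAC926.04C, chromosome I, 3888558 to 3891139, minus strand) 2558 of 2582 bp were covered in wild type, or 99.1%, and 2352 bp, or 91.1%, in abp1 deletion. This was place 5 by covered bp among all genes in wild type and place 9 in abp1 deletion. The highest score was 1116, place 17, in wild type and 1003, place 39, in abp1 deletion. Coverage ran on past the end of hsp90 into the convergent gene rlc1, a myosin light chain gene that ends 60 bp away, of which the wild-type list covered 234 bp and the abp1 deletion list 187 bp.

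The Hsp90 partners were far less covered. In wos2 (SPAC9E9.13, chromosome I, 4467887 to 4469089, minus strand) 298 of 1203 bp were covered in wild type, or 24.8%, by 10 short intervals, and 182 bp, or 15.1%, in abp1 deletion by 14. Its highest scores, 296 and 243, took place 244 of 367 and place 296 of 364, below the median of genes with an interval, 353 in wild type and 384 in abp1 deletion. Only 111 bp of wos2 were covered in both lists, 37.2% of the wild-type and 61.0% of the abp1 deletion length, so the lists mark largely different bases there. In sti1 (SPCC645.14C, chromosome III, 1261338 to 1263575, minus strand) no interval was listed.

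The J protein gene mas5 (SPBC1734.11, chromosome II, 1081375 to 1083347, plus strand) resembled wos2 in its partial coverage by short intervals. In wild type 454 of 1973 bp were covered, or 23.0%, by 14 intervals, and in abp1 deletion 496 bp, or 25.1%, by 20. The widest single intervals measured 237 and 258 bp, and the highest scores were 287 and 275. All covered bases of mas5 and of wos2 lay inside the coding span in both lists. The disaggregase gene hsp104 (SPBC16D10.08C, chromosome II, 3612265 to 3615269, minus strand), at 3005 bp the longest of the 10, had no interval.

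In mitochondria, hsp60 (SPAC12G12.04, chromosome I, 339766 to 342097, minus strand) had 1849 of 2332 bp covered in wild type, or 79.3%, and 1808 bp, or 77.5%, in abp1 deletion. A single interval held most of it, 1738 bp in wild type and 1695 bp in abp1 deletion, and both ended 2003 bp past the gene start, just beyond the coding span, which ends at 1991. Its highest scores were 531 and 515, places 90 and 113. Short pieces beyond that point ran toward taf9, a convergent gene 2 bp away, with 30 covered bp in the wild-type list and 100 in the other.

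**Figure D3:**
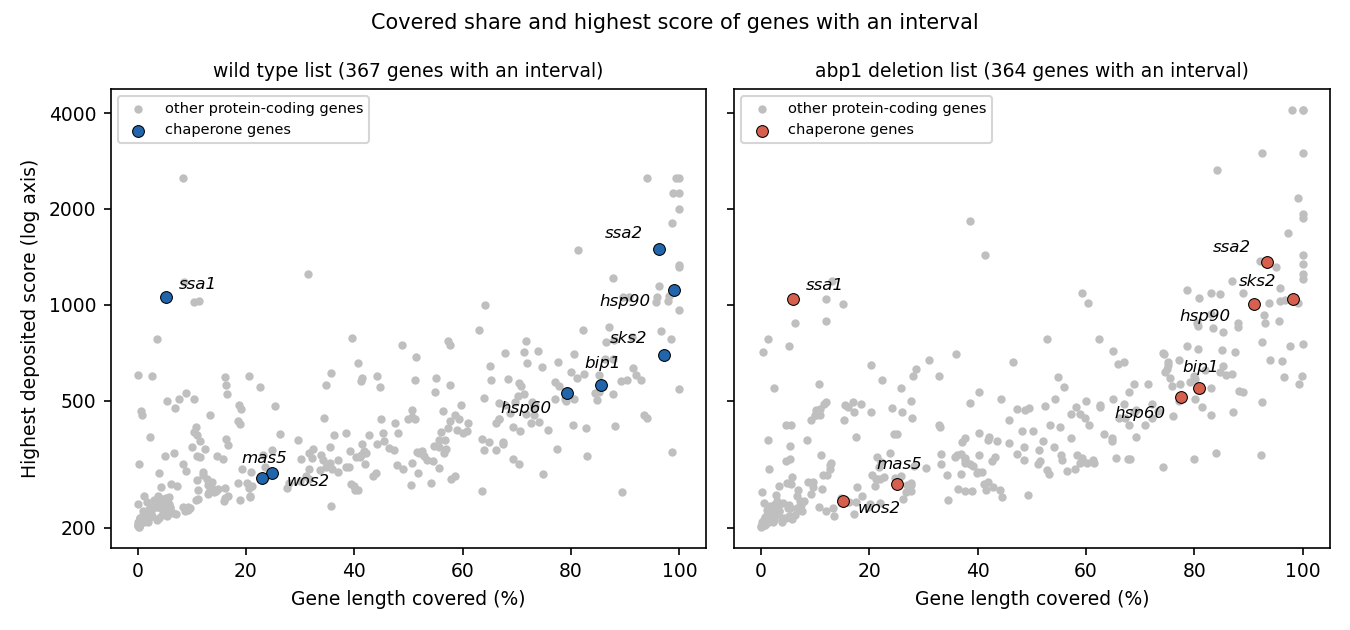
Share of the gene covered (%, horizontal axis) against the highest deposited score (log axis) for every protein-coding gene with an interval, in the wild-type list (367 genes, left) and the abp1 deletion list (364 genes, right); coloured points are the chaperone genes. Members hsp90, ssa2, sks2, bip1 and hsp60 sit at the right of both panels, mas5 and wos2 lie at low score and partial coverage, and ssa1 lies away from the other members, near a few other genes, with 1055 and 1045 on 5.24% and 6.0% of its length.

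Set side by side by what is known of their expression, the genes fell far apart. The clearest constitutive members, ssa2 and sks2, were covered over 4260 of 4405 bp in wild type, or 96.7%, and 4217 bp, or 95.7%, in abp1 deletion. The clearest heat-inducible members, ssa1 and hsp104, were covered over 125 of 5390 bp in wild type, or 2.32%, and 143 bp, or 2.65%, in abp1 deletion, all of it in the ssa1 islands that resemble ssa2. The other 6 genes are known both in growing cells and after heat, and were not placed in either class. Their coverage ran from 0% in sti1 to 99.1% in hsp90 in wild type, and to 91.1% in abp1 deletion. These classes hold 2 genes each, follow general knowledge of the genes and were set with earlier results of these data known, so the contrast is a description.

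By compartment, the ER member bip1 and the mitochondrial member hsp60 were covered over 85.5% and 79.3% in wild type and 80.8% and 77.5% in abp1 deletion. The 8 cytosolic genes spanned the whole range, with 7695 of 17791 bp covered in wild type, or 43.3%, and 7390 bp, or 41.5%, in abp1 deletion. With 1 gene each in the ER and in mitochondria, no comparison of compartments can be drawn.

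The windows before ssa1 and ssa2 both hold letters that match a heat shock element, the kind of sequence to which Hsf1 is known to bind. The 250 bp before each gene start were searched on both strands for a longer motif, GAANNTTC followed by any 2 bases and a further GAA, and for the shorter GAANNTTC and TTCNNGAA. Each shorter form reads the same on both strands and lies within the longer motif. Of 5112 protein-coding genes with a full window, 21 held the longer motif, or 0.411%, and 2 of these are members, ssa1 and ssa2. The matches lie 58 bp before the ssa1 start and 59 bp before the ssa2 start, shown here with capitals at the fixed letters of the motif. That of ssa1 is at chrI:2298002-2298030 on the minus strand and that of ssa2 at chrIII:2056976-2057004 on the plus strand, where the annotated end of the upstream gene ppe1 overlaps it.
ssa1, heat shock element match: gggttggtGAAggTTCgaGAAtggacaaa
ssa2, heat shock element match: ggttttggGAAacTTCgaGAAccgtagcc

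The longer match lies at nearly the same distance from both genes. The ssa1 window also holds a separate TTCNNGAA, from 89 to 82 bp before the gene start. In the ssa2 window the shorter forms were found only within the longer match. Coverage of ssa1 and ssa2 was 5.24% and 96.3% in wild type and 6.0% and 93.5% in abp1 deletion. Whether a match bears on coverage was not tested. The shorter forms were found before hsp90, sti1 and mas5 (GAANNTTC) and before bip1, wos2 and hsp60 (TTCNNGAA). In all, 8 of the 10 windows held at least 1 of the motifs, against 16.7% of all windows; GAANNTTC alone occurred in 9.49% and TTCNNGAA in 8.35%. The windows of sks2 and of hsp104 held none of these motifs. A match is a description of sequence and not a site shown to be bound.

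Each gene was split into 3 segments of equal length, from start to end. In wild type the middle segment was covered over a larger share than both others in all 8 members with an interval. In abp1 deletion this held for 6 of the 8, and in hsp90 and sks2 the middle and end segments were tied at 100%. In wild type the pooled shares were 60.2% of the start segment, 80.9% of the middle segment and 61.4% of the end segment, and in abp1 deletion 52.1%, 80.2% and 62.2%. Over all protein-coding genes with an interval they were 22.9%, 44.1% and 34.4% in wild type and 22.7%, 49.1% and 39.2% in abp1 deletion, so the same order of middle before end before start was seen there. There the middle segment was above both others in 181 of 367 genes in wild type, with ties in 35, and in 178 of 364 in abp1 deletion, with ties in 58. Within the coding span of the members only, the pooled start, middle and end shares were 73.6%, 80.7% and 76.6% in wild type. In abp1 deletion they were 69.7%, 79.1% and 78.2%. The pooled lead of the middle segment in the members was thus smaller within the coding span than over the whole gene.

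The start segment was less covered in abp1 deletion in 6 of the 7 members with coverage there, against 49.2% of the 256 protein-coding genes with such coverage; 44.9% of those were more covered. The widest gaps were at hsp90, with 97.6% in wild type and 73.3% in abp1 deletion, bip1, with 77.9% and 65.2%, and ssa2, with 94.2% and 84.1%. In mas5 the shares were 15.2% and 7.60%, in hsp60 65.9% and 60.7%, and in wos2 0.499% and 0%. The exception was sks2, with 92.1% and 94.5%. The wild-type coverage of the start segment of wos2 came from intervals of 1 bp with a score of 200. The median difference, abp1 deletion minus wild type, was -7.60 percentage points over these 7 genes and 0.0 over all 256. Counted within the coding span only, 3 of 6 members were less covered at the start, 1 was more covered and 2 were equal, so the count of 6 rests partly on bases before the coding span. The count was 5 of 6 with the upper 50% by score and with lists of equal length. It was 4 of 5 with scores of at least 300, and 7 of 7 with intervals up to 100 bp apart merged.

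**Figure D4:**
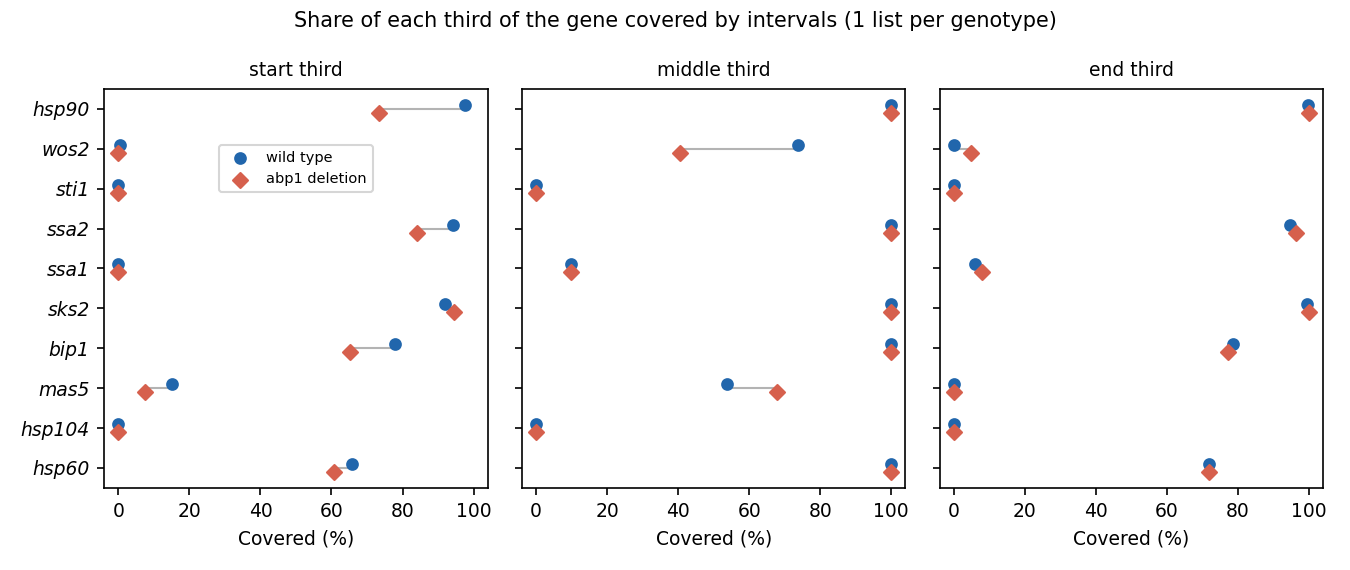
Share of the start, middle and end segment of each gene covered by intervals (%), in wild type (circles) and abp1 deletion (diamonds). Start-segment values of hsp90, bip1 and ssa2 lie lower in abp1 deletion, while the middle segments of hsp90, ssa2, sks2, bip1 and hsp60 are at 100% in both lists.

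Bases before the coding span, where the untranslated leader is transcribed, were covered in hsp90, ssa2 and sks2 and in no other member. In hsp90 230 of these 251 bp were covered in wild type, or 91.6%, and 21 bp, or 8.37%, in abp1 deletion. In ssa2 the values were 156 and 79 of 200 bp, or 78.0% and 39.5%. In sks2 they were 38 and 21 of 60 bp, or 63.3% and 35.0%. All 3 had fewer covered bases there in abp1 deletion, as had 44.4% of the 72 protein-coding genes with such coverage, while 36.1% of those had more. The hsp90 bases belong to a wild-type interval from 29 bp before to 98 bp past the gene start, with a score of 355, and to the front of the main interval, which began at 120 bp in wild type and at 232 bp in abp1 deletion.

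The first covered base lay farther from the gene start in abp1 deletion in 6 of the 8 members with intervals, against 49.8% of the 319 protein-coding genes with intervals in both lists, with 42.9% nearer. It lay at 207 and 320 bp in bip1 (wild type and abp1 deletion), at 391 and 560 bp in wos2 and at 520 and 595 bp in mas5. In hsp60 it lay at 266 and 280 bp, in sks2 at 23 and 39 bp, and in hsp90 at 1 and 5 bp. For ssa2 it was the first base of the gene in both lists, where a short interval reaches in from ppe1, and for ssa1 it was 1514 and 1512 bp. Several of these bases are intervals of 1 bp with a score of 200 or 201. They are those of bip1, sks2 and hsp90 in abp1 deletion and of wos2 and mas5 in wild type. The widest interval began at 207 and 329 bp in bip1, at 120 and 232 bp in hsp90 and at 64 and 138 bp in ssa2. In hsp60 it began at 266 and 309 bp. In sks2 it began nearer to the gene start in abp1 deletion, at 111 and 41 bp.

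The coding span of hsp90 and of ssa2 was covered in full in both. That of sks2 was covered over 98.2% in wild type and 100% in abp1 deletion, that of bip1 over 98.8% and 92.9%, and that of hsp60 over 98.7% and 96.4%. After the coding span, coverage was 98.6% and 100% in hsp90, 98.1% and 100% in sks2, 71.7% and 80.7% in ssa2, 67.7% and 65.9% in bip1, and 36.1% and 35.8% in hsp60. For comparison, protein-coding genes were taken with at least 50% of the coding span covered and at least 50 bp annotated on each side of it. Their medians before, within and after the coding span were 2.56%, 94.4% and 60.7% in wild type (69 genes). In abp1 deletion they were 0.0%, 96.4% and 74.0% (77 genes).

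**Figure D5:**
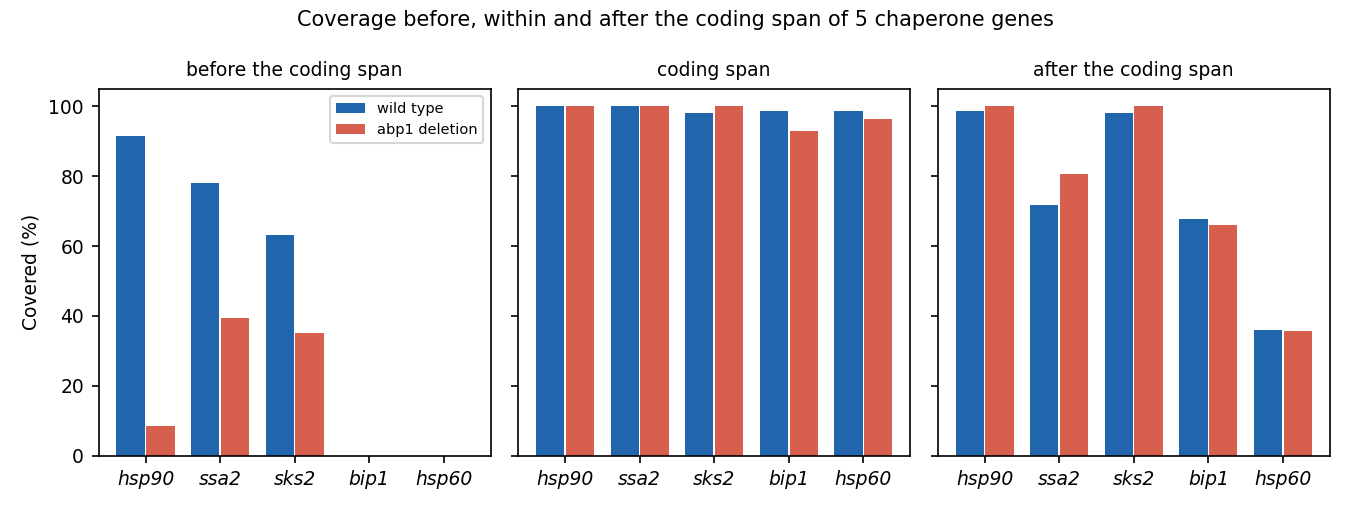
Share of the bases before, within and after the coding span that were covered (%), for the 5 members covered over at least 50% of their length, in wild type and abp1 deletion. Bars before the coding span are lower in abp1 deletion for hsp90, ssa2 and sks2, and absent for bip1 and hsp60 in both lists.

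The 10 genes together held 11931 covered bp in the wild-type list against 11456 in that of abp1 deletion. Coverage was shorter in abp1 deletion in 5 members and longer in 3 (within the coding span, in 3 and 3, with hsp90 and ssa2 equal), while of the 412 protein-coding genes that either list marks, 43.4% had shorter and 54.4% longer coverage. The median difference, abp1 deletion minus wild type, was -52.5 bp over the 8 members, or 0.0 bp within the coding span, and 10 bp over the 412 genes. The largest member differences were -206 bp at hsp90, -129 bp at bip1 and -116 bp at wos2, and those above 0 were 42 bp at mas5, 21 bp at sks2 and 18 bp at ssa1. Outside wos2 and mas5 the lists marked nearly the same bases: of the wild-type length, 91.8% was also covered in abp1 deletion at hsp90, 94.1% at hsp60, 94.6% at bip1, 96.5% at ssa2 and 99.2% at sks2. At mas5 this share was 84.6%, well above the 37.2% at wos2.

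A list of further chaperones and partners matched 44 genes, of which 2 had an interval in each list, pss1 and ssc1. That is 4.55% in each list, near the 7.18% and 7.12% of all protein-coding genes. This is 1 of 8 cytosolic Hsp70 partners and 1 of 5 mitochondrial folding genes. The gene pss1, which encodes an Hsp110 protein, had 382 of 2930 bp covered in wild type and 233 in abp1 deletion, with scores of 255 and 243. The mitochondrial Hsp70 gene ssc1 had 452 of 2438 bp in wild type and 741 in abp1 deletion, with scores of 276 and 307. Among the listed genes, no interval was found in the 8 of the cytosolic chaperonin, the 6 of prefoldin or the 5 further Hsp90 partners. The same held for the 6 listed ER folding genes, sil1, cnx1, scj1, pdi1, ero11 and ero12. It also held for the 6 genes for small heat shock proteins, other heat shock proteins and Hsf1. The small heat shock protein gene hsp16 was thus empty along with hsp104. The list is not complete: pdi4, which is not on it, had 16.1% of its length covered in wild type and 17.0% in abp1 deletion.

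The members also share a simple gene structure. Of the 10 genes 9 have a single exon, wos2 being the exception with 2, against 51.7% of all protein-coding genes and 68.0% of the 412 that either list marks. Their median length is 2310.5 bp, longer than the 1773 bp of protein-coding genes and the 1513 bp of genes with an interval.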

How the data were processed

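The submitters' processing notes name Bowtie 0.12.5, a read aligner. Peak caller, genome build, scaling and use of the inputs were not given in the sources used here. Per the labels, chromatin was fixed with 1% formaldehyde for 15 min and sheared to 250 to 400 bp; libraries were made with an RNA library kit. The deposited lists hold chromosome, start, end and a whole-number score per interval, whose unit is not stated; the inputs were not analysed here.

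Starts were read as 0-based. Coordinates were compared with assembly ASM294v3: 89.6% of wild-type and 90.4% of abp1 deletion covered bases lay in protein-coding genes, and at most 79.8% when both lists were moved by 500 to 10000 bp. For each gene, covered bases, 3 equal segments in the direction of transcription, the highest score and its place among all genes were computed with Python 3.11.15 and NumPy 2.4.6; coding sequences were aligned with Biopython 1.88. The coverage code was tested on simulated data. Of 50 further chaperone and partner names, 3 matched no gene (caj1, cyp40 and lhs1) and the rest gave 44 genes. All 10 members are named, with partners and overlapping genes that had an interval. Members, gene lists and expression classes were chosen with earlier results of these data known. Score minimum, list length, gene model, merging, coordinate convention, repeated 36-mers and ssa1 were varied. No p-value was computed, since each genotype has 1 list.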

Additional observations from a re-analysis of the deposited data

How the results depend on the processing

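No paired analysis was possible because each genotype has 1 list. The count of 8 members with an interval was 6 in each list with scores of at least 300, since wos2 and mas5 drop out, and 7 without ssa1; with the upper 50% by score, lists of equal length, the coding span, at least 50 covered bp or 1-based starts it was 8. Leaving out bases in repeated 36-mers (again 8) and leaving out ssa1 were alternatives chosen after seeing the data.

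Covered length over the members, 11931 bp in wild type and 11456 bp in abp1 deletion, was 10438 and 10258 bp in the coding span, 10956 and 10505 bp with scores of at least 300, 12519 and 12026 bp with intervals up to 100 bp apart merged, and 11741 and 11266 bp without repeated 36-mers. It was longer in wild type each time. The members with shorter coverage in abp1 deletion, 5 of 8, were 3 in the coding span, where hsp90 and ssa2 were equal, 4 of 6 with scores of at least 300 and 6 with merging. With scores of at least 300 the difference at bip1 was -271 bp in place of -129 bp and that at sks2 76 bp in place of 21 bp. At sks2 merging turned the direction, with 2094 bp in wild type and 2078 bp in abp1 deletion. At ssa1 merging gave 218 and 227 bp, and without repeated 36-mers 69 and 87 bp were left.

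Pooled over the coding span, the start segment was covered over 73.6% and 69.7% (wild type and abp1 deletion). The middle segment was covered over 80.7% and 79.1% and the end segment over 76.6% and 78.2%. With merging, the start segment was at 62.7% in wild type, the middle segment at 83.0% and 83.1% and the end segment at 66.8% and 68.1%. Without ssa1 the start segment was at 69.6% and 60.2%, the middle segment at 92.0% and 91.2% and the end segment at 70.1% and 70.6%. Without repeated 36-mers the middle segment was at 79.2% and 78.6%. With depth, scaling and peak caller unknown, the lack of an interval at sti1 and hsp104 does not show that polymerase was absent there.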
